A study of Mus musculus with 14 samples.

Results

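Cep97 and Ccp110 are 2 of the 18672 genes for which a transcript was assembled in at least 1 of 14 mouse hippocampus RNA libraries. They were found by symbol, as a pair of binding partners chosen by measured values of these libraries: abundance, abundance times transcript length and exon structure per library, and the authors' FPKM per group. Cep97 stands apart in vehicle-treated Kmt2d mutants in abundance times transcript length and in its last exon, but not in the authors' FPKM. Comparisons that include the libraries of these mutants are therefore given for it without a test. Tests are given for Ccp110, which does not stand apart in that way. The values of Ccp110 also entered the choice of the pair. Its p-values and intervals are therefore descriptions, above all in comparisons that include vehicle-treated mutants.

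Each library came from the hippocampus of 1 C57BL6 mouse. The genotype was KMT2D+/+ (wild type) or KMT2D+/bGeo, which is called mutant here and carries 1 copy of a bGeo allele of Kmt2d, the gene of a histone H3K4 methyltransferase. Mice were gavaged with 1 mg/kg/day of TAK-418, which blocks the demethylase encoded by Kdm1a (LSD1), or with methylcellulose, the vehicle that all groups received. Dosing ran for 2 weeks from 2 weeks of age, and the labels give 30 days as the age. Vehicle was given to 3 wild type and 3 mutant mice, and TAK-418 to 5 wild type and 3 mutant mice. The labels name no litters, so p-values measure the spread between these libraries.

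CEP97 and CP110, the protein of Ccp110, form a cap on the distal end of the centriole, the barrel of microtubules at the heart of the centrosome. While the cap is in place the centriole cannot extend a ciliary axoneme. Removal of the cap from the mother centriole, which depends on the kinase TTBK2, lets it become the basal body of a primary cilium, the single sensory cilium that most neurons carry.

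Cep97 (ENSMUSG00000022604) lies on the minus strand of chromosome 16 at chr16:55899888-55934855 in GRCm38, and Ccp110 (ENSMUSG00000033904) on the plus strand of chromosome 7 at chr7:118712552-118737024. No annotated gene overlaps either. The assembled 5′ ends lay 4 to 60 bases inside the RefSeq start of Cep97 and 85 to 105 bases inside that of Ccp110. The promoters are taken from the annotated starts, and which starts were used in these libraries was not measured. The promoter stretches are shown because both hold the same motif. Each line runs 5′ to 3′ along the gene from 210 to 11 bases before the RefSeq start (GRCm38.p6, minus strand of chr16:55934859-55935058 and plus strand of chr7:118712333-118712532), with motif matches in capitals.
Cep97: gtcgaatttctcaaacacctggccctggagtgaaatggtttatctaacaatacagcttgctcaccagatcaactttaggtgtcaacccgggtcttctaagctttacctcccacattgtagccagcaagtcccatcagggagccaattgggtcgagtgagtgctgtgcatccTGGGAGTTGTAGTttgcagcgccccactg
Ccp110: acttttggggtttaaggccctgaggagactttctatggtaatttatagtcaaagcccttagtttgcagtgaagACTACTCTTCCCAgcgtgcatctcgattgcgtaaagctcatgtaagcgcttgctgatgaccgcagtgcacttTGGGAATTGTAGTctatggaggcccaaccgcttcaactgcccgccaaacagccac

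The capitals mark ACTACNNNTCCCA or its reverse complement TGGGANNNGTAGT, searched on both strands of the 250 bases before each start. The motif was picked after these promoters had been read, and its letters are those of the element known to be bound by ZNF143. Cep97 held 1 match, which begins 39 bases before the start, and Ccp110 held 2, which begin 137 and 65 bases before it. Of 27025 genes with a promoter of this length, 480 (1.78%) held at least 1 match and 48 (0.178%) held 2 or more. The motif was read off Cep97 and Ccp110, so they are left out of the counts for the lists below. It was held by 1 of 10 promoters of the CP110 cap list (Ttbk2), 1 of 10 of the distal appendage list (Fbf1), 1 of 12 of the centriole duplication list (Cenpj) and 0 of 8 of the pericentriolar list. A match describes letters only and binding was not measured.

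The libraries had implied totals of 35.1 to 60.0 M, where M stands for 1000000, except for wild type TAK-418 replicate 1 at 167.6 M. These totals were worked out from the values and serve as relative depths. Kmt2d ranged from 9.34 to 18.0 and Kdm1a from 29.9 to 35.8 in scaled abundance, and the 4 groups overlapped for both, so the genotype labels could not be checked from the Kmt2d level. All 10 listed hippocampal excitatory neuron markers had a value, with a summed level of 2210 to 2480. The 12 choroid plexus markers summed to 5110 in mutant vehicle replicate 1, 6540 in wild type vehicle replicate 3, 925 in mutant vehicle replicate 3, 619 in mutant TAK-418 replicate 1 and 19.1 to 48.6 in the other 10 libraries.

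Cep97 was assembled in every library. Abundance below is the authors' score per transcript, on an FPKM-like scale per length, summed over a gene and scaled between libraries. Cep97 stood at 5.08, 5.33 and 5.57 in wild type vehicle libraries, in replicate order, and at 4.02, 4.28 and 4.93 in mutant vehicle libraries. It stood at 5.51, 5.51, 4.59, 5.21 and 5.51 in wild type TAK-418 libraries and at 5.34, 4.77 and 5.51 in mutant TAK-418 libraries. The 3 mutant vehicle values lay below every wild type vehicle value, but mutant vehicle replicate 3 was above a library of each treated group. The mutant vehicle values include a separate single-exon transcript, described below, that no other library had. The overlap with the treated groups is stated for this sum only.

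Under vehicle the mean of Cep97 was 5.33 ± 0.244 (SD, n = 3) for wild types and 4.41 ± 0.467 (SD, n = 3) for mutants. Under TAK-418 it was 5.27 ± 0.399 (SD, n = 5) for wild types and 5.21 ± 0.389 (SD, n = 3) for mutants. The 3 higher groups differed by less than their spread. On the log2 scale, mutant vehicle libraries were lower than wild type vehicle libraries by a difference of -0.23 (SE 0.088). TAK-418 in mutants gave a difference of 0.20 (SE 0.088). Of the 16537 genes tested, 4.51% had all mutant vehicle values below all wild type vehicle values in scaled abundance. The gene was picked with that contrast in view, and nothing is read from its place in it.

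**Figure D1:**
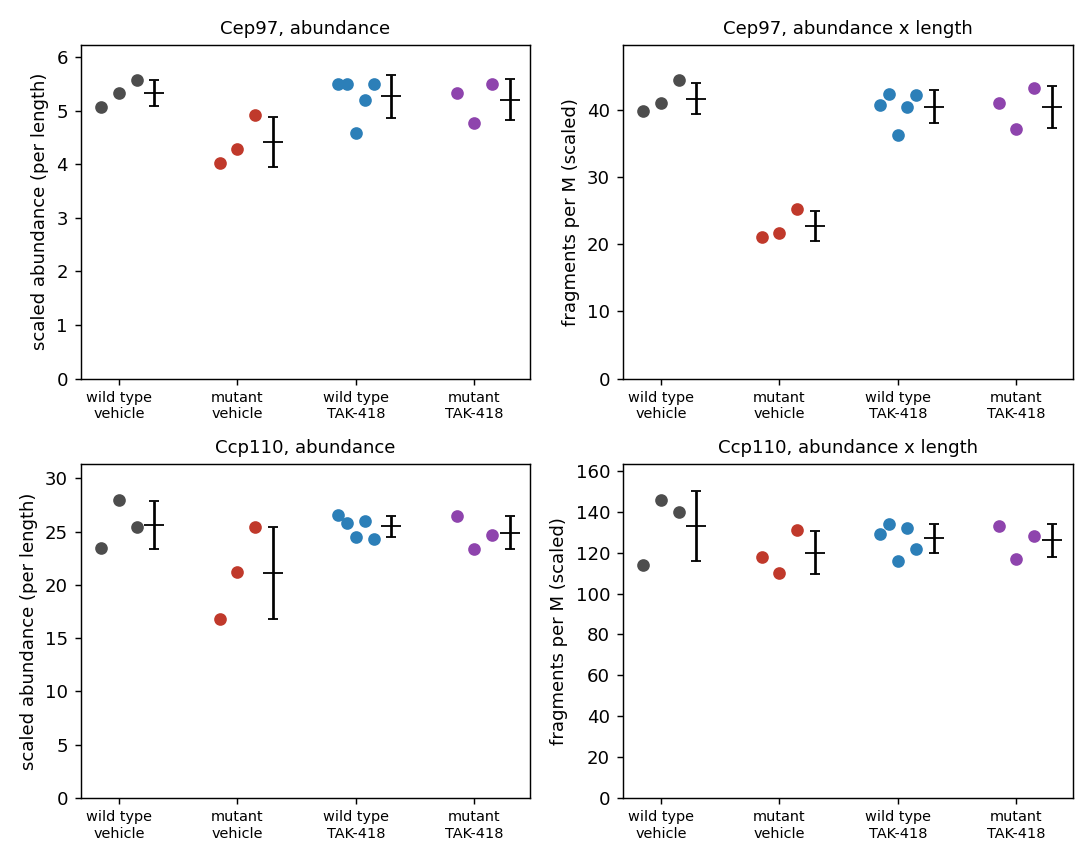
Scaled abundance (left) and abundance times length, as fragments per M (right), of Cep97 (top) and Ccp110 (bottom) by group; points are libraries, and the bar beside them is the mean with SD. For Cep97 the 3 mutant vehicle libraries sit at 21.1 to 25.3 fragments per M and the other 11 at 36.3 to 44.4, while the Ccp110 groups overlap on both scales.

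The difference was larger for abundance multiplied by the assembled transcript length. This value is an estimate of fragments from the models and not a count of reads, so a shorter model lowers it at the same abundance. It is given here as fragments per M, scaled between libraries. Mutant vehicle libraries had 21.1, 21.7 and 25.3 fragments per M of Cep97. Wild type vehicle libraries had 39.8, 41.0 and 44.4. Wild type TAK-418 libraries had 40.8, 42.4, 36.3, 40.4 and 42.3, and mutant TAK-418 libraries had 41.1, 37.1 and 43.3. All mutant vehicle libraries were below all of the other 11, with a gap of more than 10 fragments per M between the nearest pair, whereas the 3 other groups overlapped fully. The mean was 22.7 ± 2.24 (SD, n = 3) in mutant vehicle and 41.7 ± 2.37 (SD, n = 3) in wild type vehicle libraries, which is a log2 difference of -0.86 (SE 0.084), or 0.549 times. TAK-418 in mutants went with a log2 difference of 0.82 (SE 0.084), or 1.77 times, and the genotype difference under TAK-418 was 0.00 (SE 0.076). Of all genes tested, 0.405% had every mutant vehicle value below every other value on this scale.

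The transcript models show where the 2 scales part. The same 10-intron, 11-exon chain was assembled in all 14 libraries, and it matches the longest annotated transcript of 7911 bases. In 11 libraries the model was 7686 to 7808 bases long and its 3′ end lay 92 to 177 bases short of the annotated end. In the 3 mutant vehicle libraries the main model was 5251, 5291 and 5263 bases long and stopped 2630, 2602 and 2581 bases short of the annotated end. The 5′ ends, by contrast, fell in chr16:55934788-55934844 in all 14 libraries. The shortening was wholly in the last exon, which spans chr16:55899888-55905869 and is 5982 bases long, of which 5280 bases are 3′ UTR after the stop codon. The assembled last exon ran past the stop codon in every library. Whether each model held the start codon is not given here.

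**Figure D2:**
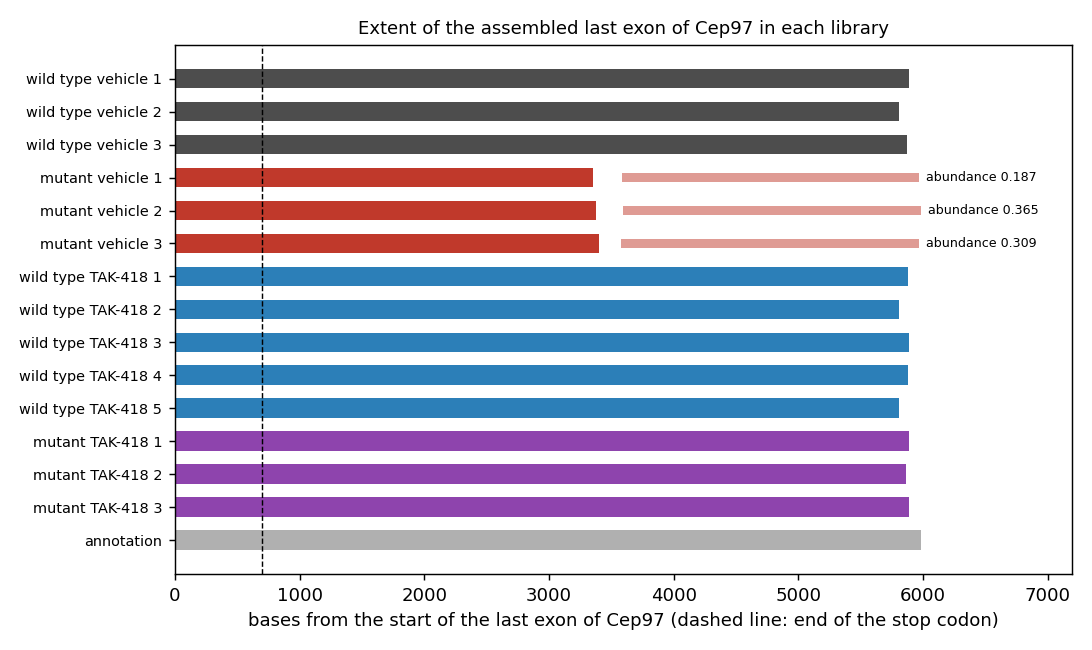
Extent of the assembled last exon of Cep97 in each library, in bases from the start of that exon; thin bars are separate single-exon transcripts with their deposited abundance, and the dashed line marks the end of the stop codon. The last exon is 3352 to 3401 bases in the 3 mutant vehicle libraries and 5805 to 5890 bases in the other 11.

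The rest of the 3′ UTR was not empty in the mutant vehicle libraries. Each had a separate single-exon transcript without a strand, of 2386, 2387 and 2388 bases, that ended within 13 bases of the annotated end of the gene. Its deposited abundance was 0.187, 0.365 and 0.309, which is 6.20%, 9.05% and 6.58% of the abundance of the main model in the same library. By abundance times length the piece stood for an estimated 18, 43 and 34 fragments. None of the other 11 libraries had such a piece. Because a model carries 1 abundance over its whole length, the files do not give the density over the distal 3′ UTR alone in those 11 libraries.

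Between the main model and the distal piece lay 231, 218 and 180 bases with no assembled transcript, and all 3 gaps share chr16:55902289-55902468. This stretch of 180 bases starts 2700 bases after the stop codon. Its GC content was 52.2%, against 40.9% for the whole last exon. Of its 156 words of 25 bases, 17.3% also occur in transcripts of other annotated genes, on either strand, against 3.65% of the 5802 words in the rest of the exon. The stretch below is a part of the gap chosen for a shorter shared word, in the direction of the gene (minus strand of chr16:55902350-55902374). Its capitals mark the word of 17 bases in the gap that most other genes hold, leaving out words that are mostly A.
Gap of Cep97: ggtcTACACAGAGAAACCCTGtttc

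Transcripts of 1461 other genes, 2.64% of the 55341 annotated symbols, hold these 17 bases on either strand. No word of 17 bases is given for the rest of the exon, so this count does not compare the gap with it. The longest run of A in the last exon, 30 bases at chr16:55902262-55902291, overlaps the edge of the gap. Neither AATAAA nor ATTAAA, the common polyadenylation signals, occurs in the gap or in the 50 bases before the mutant vehicle 3′ ends. How reads on shared letters were placed is not given in the sources used here, and its part in the shorter models was not tested.

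The mutant vehicle libraries had implied totals of 40.3, 49.3 and 46.1 M, and the wild type vehicle libraries 45.2, 49.8 and 35.1 M. Wild type vehicle replicate 3, at 35.1 M and with a choroid plexus marker sum of 6540, had a Cep97 model of 7787 bases. Mutant vehicle replicate 2, with a marker sum of 48.6, had one of 5291 bases. The part of depth and of choroid plexus RNA in the model lengths was not tested.

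Among 13179 genes with a multi-exon model in all 14 libraries, Cep97 was the 1 gene (0.00759%) whose 3′ end was at least 1000 bases short in every mutant vehicle library relative to every other library. No gene met the same condition for any of the 3 other groups. The condition was written after the Cep97 models had been seen and describes how the gene was singled out. Short 3′ ends in some libraries were common: 1235 genes had models at least 1000 bases shorter than the longest in 3 or more libraries and models within 200 bases of it in 3 or more. Over these genes, libraries with a short model had a median log2 difference of 0.04 in abundance (quartiles -0.18 and 0.38) and of -0.48 in abundance times length (quartiles -1.04 and -0.17). For Cep97 these differences were -0.22 and -0.83, and 21.3% and 33.2% of the 1235 genes had lower values. Abundance times length thus falls with a shortened model for most such genes.

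The authors' deposited tables, which pool the libraries of a group over a merged locus, gave Cep97 nearly the same level in all groups. Under vehicle the FPKM in the authors' deposited tables was 3.92 to 3.95 for wild types and 3.85 to 3.86 for mutants. Under TAK-418 the authors' deposited tables gave 3.85 to 3.88 for wild types and 3.82 for mutants. The log2 ratio of mutant to wild type under vehicle was -0.03 in the authors' deposited table, against -0.23 for abundance and -0.86 for abundance times length. Of the tested loci, the authors' deposited tables called 0.224% for the genotypes under vehicle, 0.218% for the genotypes under TAK-418, 0.324% for treated mutants against vehicle-treated wild types and 0.611% for vehicle-treated mutants against treated wild types. The locus of Cep97, at chr16:55899884-55934855, was not among the calls of the authors' deposited tables (q of 0.998 to 1.0). The locus runs to the annotated 3′ end, past the stretch that the mutant vehicle models lack. Which bases entered the authors' deposited values is not given in the sources used here. The cause of the difference between these measures was not tested.

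**Figure D3:**
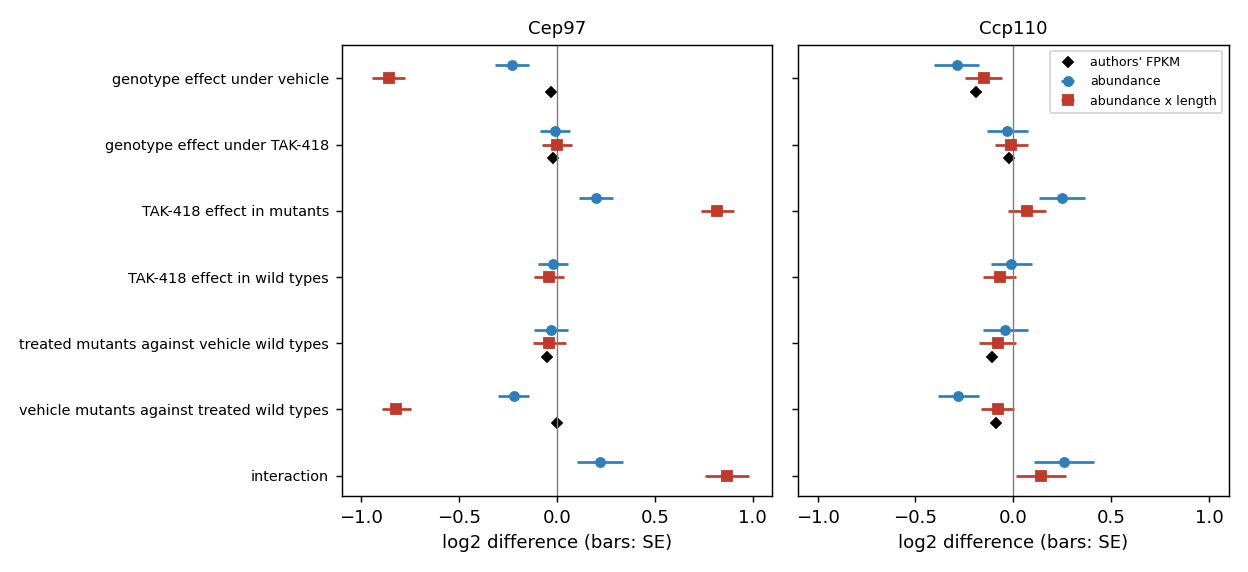
Log2 difference of Cep97 (left) and Ccp110 (right) in 7 contrasts, by abundance, by abundance times length and, for the 4 comparisons the authors deposited, by their pooled FPKM; bars are SE from limma. Cep97 reaches -0.86 for the genotype effect under vehicle by abundance times length and -0.03 by the authors' FPKM, and all Ccp110 values stay between -0.29 and 0.26.

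A second splice form of Cep97, with an acceptor that makes 1 exon 19 bases longer, was assembled in wild type TAK-418 replicate 5 and mutant vehicle replicate 1. It made up 6.14% and 6.41% of the multi-exon abundance there. It is the only other multi-exon form of Cep97 in these 14 libraries.

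Ccp110 was the more abundant partner. Its scaled abundance averaged 24.4 over the 14 libraries, against 5.08 for Cep97, which put Ccp110 at percentile 77.2 and Cep97 at percentile 46.1 of the genes with a value. The ratio of the 2 genes in scaled abundance was 4.56 to 5.26 in wild type vehicle, 4.16 to 5.15 in mutant vehicle, 4.42 to 5.34 in wild type TAK-418 and 4.49 to 4.96 in mutant TAK-418 libraries. Thus the ratio per length overlapped between all groups. In fragments per M the ratio was 5.09 to 5.59 in mutant vehicle and 2.87 to 3.56 in the other 11 libraries, following the shorter Cep97 model.

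Ccp110 stood at 23.5, 28.0 and 25.4 in wild type vehicle libraries and at 16.8, 21.2 and 25.4 in mutant vehicle libraries. It stood at 26.6, 25.8, 24.5, 26.0 and 24.3 in wild type TAK-418 libraries and at 26.5, 23.4 and 24.7 in mutant TAK-418 libraries. Mutant vehicle replicates 1 and 2 were the lowest of all 14, and replicate 3 lay in the middle of the wild type values. The choroid plexus marker sum was 5110 in mutant vehicle replicate 1, where Ccp110 read 16.8, and 6540 in wild type vehicle replicate 3, where Ccp110 read 25.4. The part of choroid plexus RNA in these levels was not tested.

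Ccp110 averaged 25.6 ± 2.27 (SD, n = 3) for wild types and 21.1 ± 4.32 (SD, n = 3) for mutants under vehicle. Under TAK-418 it averaged 25.5 ± 0.988 (SD, n = 5) for wild types and 24.9 ± 1.54 (SD, n = 3) for mutants. The genotype effect under vehicle was -0.29 on the log2 scale (SE 0.116, 95% interval -0.54 to -0.03), with an adjusted p of 0.854 in limma. TAK-418 in mutants gave 0.25 (95% interval -0.01 to 0.51, limma adjusted p of 1.0), and vehicle mutants against treated wild types gave -0.28 (95% interval -0.51 to -0.05, limma adjusted p of 0.453). The remaining contrasts were -0.03 for genotype under TAK-418, -0.01 for TAK-418 in wild types, -0.04 for treated mutants against vehicle wild types and 0.26 for the interaction. None of the 7 passed limma's adjusted threshold, and 2 had an unadjusted p under 0.05. Both of those include the mutant vehicle libraries, which were in view when the pair was chosen, so nothing is read from them. Limma called 0% of all genes for the genotype effect under vehicle, for TAK-418 in wild types and for vehicle mutants against treated wild types, 0.0121% for genotype under TAK-418, 0.00605% for TAK-418 in mutants and for the interaction, and 0.0242% for treated mutants against vehicle wild types. Without mutant vehicle replicate 1 the genotype effect under vehicle was -0.14, vehicle mutants against treated wild types -0.13, TAK-418 in mutants 0.10 and the interaction 0.11. With only the highest transcript of each gene, they were -0.04, -0.02, -0.30 and -0.28.

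In fragments per M, Ccp110 read 118, 110 and 131 in mutant vehicle and 114, 146 and 140 in wild type vehicle libraries. The treated libraries read 129, 134, 116, 132 and 122 in wild types and 133, 117 and 128 in mutants. All groups overlapped on this scale. The genotype effect under vehicle was -0.15 (SE 0.095, limma adjusted p of 0.98), and exact two-sided permutation tests over 6 pairs of groups gave p from 0.30 to 0.875. Mutant vehicle replicate 1, the lowest library in abundance, was in the range of the others here, and its main Ccp110 model, of 7590 bases, keeps both introns described below.

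The authors' deposited tables gave Ccp110 an FPKM of 21.4 to 21.6 in wild type vehicle, 18.7 to 18.8 in mutant vehicle, 20.0 to 20.2 in wild type TAK-418 and 19.9 to 20.0 in mutant TAK-418 mice. The log2 ratio of mutant to wild type under vehicle was -0.19 with a p of 0.155 in the authors' deposited table. None of the 4 deposited tables called Ccp110 (q of 0.794 to 1.0).

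The Ccp110 models differed at the 3′ end. The annotation has an 86-base exon at chr7:118732887-118732972, which follows an intron of 433 bases and precedes an intron of 2295 bases and the last exon. Since 86 is not a multiple of 3, leaving the exon out changes the reading frame, and the annotated stop codon then lies 23 bases further on in the last exon. The exon was spliced in on full-length models of 8 libraries and skipped on full-length models of 13. A model that kept the intron after it was present in 13 libraries, of which 8 kept both introns in one model, and a model that kept only the intron before it in 7. Partial models of the 3′ end alone were present in 9 libraries.

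**Figure D4:**
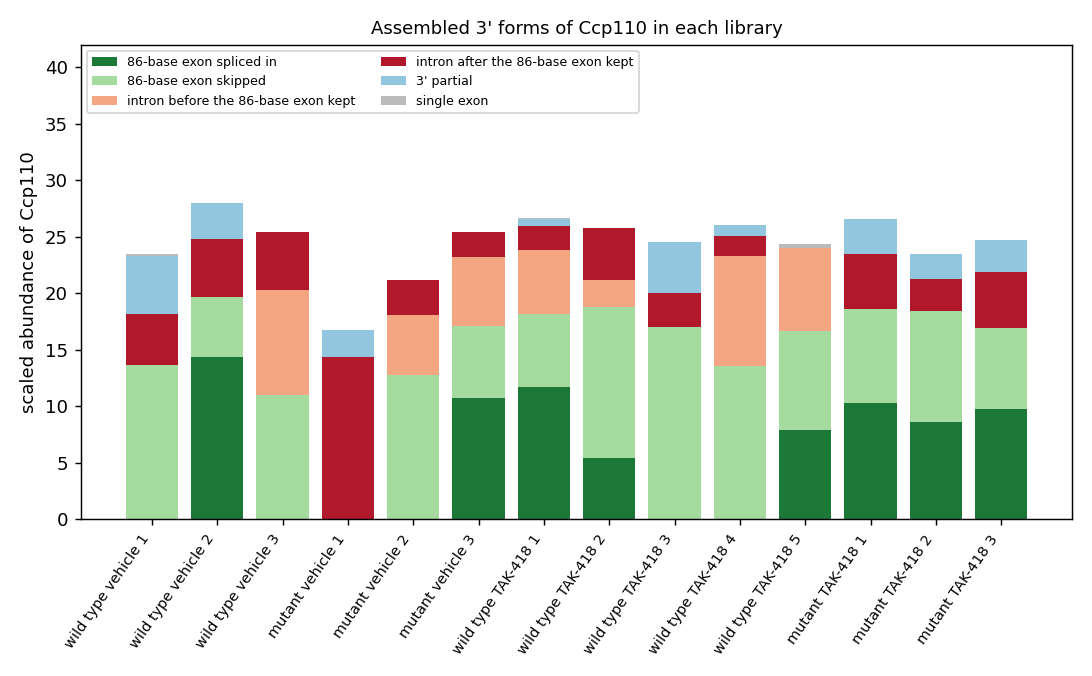
Scaled abundance of Ccp110 in each library, stacked by the 3′ form of the assembled transcripts. Mutant vehicle replicate 1 has 14.4 of its 16.8 in a model that keeps the intron after the 86-base exon, while in the other 13 libraries such models hold 0 to 5.18.

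Of the abundance on models with a junction into the last exon, the skipping junction took 72.8%, 23.1% and 54.2% in wild type vehicle libraries and 5.32%, 70.9% and 27.7% in mutant vehicle libraries. It took 26.3%, 63.3%, 79.2%, 56.0% and 36.4% in wild type TAK-418 libraries and 38.3%, 47.5% and 36.3% in mutant TAK-418 libraries. The spread within a group was as wide as that between groups, and the 5.32% rests on 2 partial models. Over 6 pairs of groups, exact two-sided permutation tests gave p from 0.393 to 0.875, all 0.875 after Benjamini-Hochberg adjustment.

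Models that kept the intron after the 86-base exon held 19.0%, 18.3% and 20.4% of the Ccp110 abundance in wild type vehicle libraries and 86.1%, 14.5% and 8.67% in mutant vehicle libraries. They held 8.0%, 18.0%, 12.4%, 6.66% and 0% in wild type TAK-418 libraries and 18.4%, 11.9% and 19.8% in mutant TAK-418 libraries. In mutant vehicle replicate 1 no full-length spliced model was assembled beside it. Every wild type TAK-418 value lay below every wild type vehicle value, with a mean of 9.01 ± 6.70 (SD, n = 5) against 19.2 ± 1.06 percent (SD, n = 3), and the exact permutation p was 0.0536, or 0.321 adjusted over 6 pairs. The nearest values were 18.0% and 18.3%, and this p was the lowest of all the exact tests of Ccp110. Exon structure entered the choice of the pair, so the p is a description. Tests of 3 against 3 libraries cannot go below 0.1.

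In log2 scaled abundance, Cep97 and Ccp110 had a Pearson's r of 0.83 and a Spearman's rho of 0.55 over 14 libraries. The pair was chosen with the mutant vehicle libraries in view, so this value is a description and has no p. Without the 2 libraries farthest from the Ccp110 median, mutant vehicle replicates 1 and 2, r was 0.44, so the value rests on them. Over the 11 libraries of the other groups, r was 0.47 (permutation p of 0.149, or 0.298 after Benjamini-Hochberg adjustment over the 2 tests) and rho 0.24 (permutation p of 0.485, also after adjustment). Without the 2 farthest of these 11, r was 0.38. Deviations from the group means gave r of 0.67. In abundance times length, r over 14 libraries was 0.50.

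**Figure D5:**
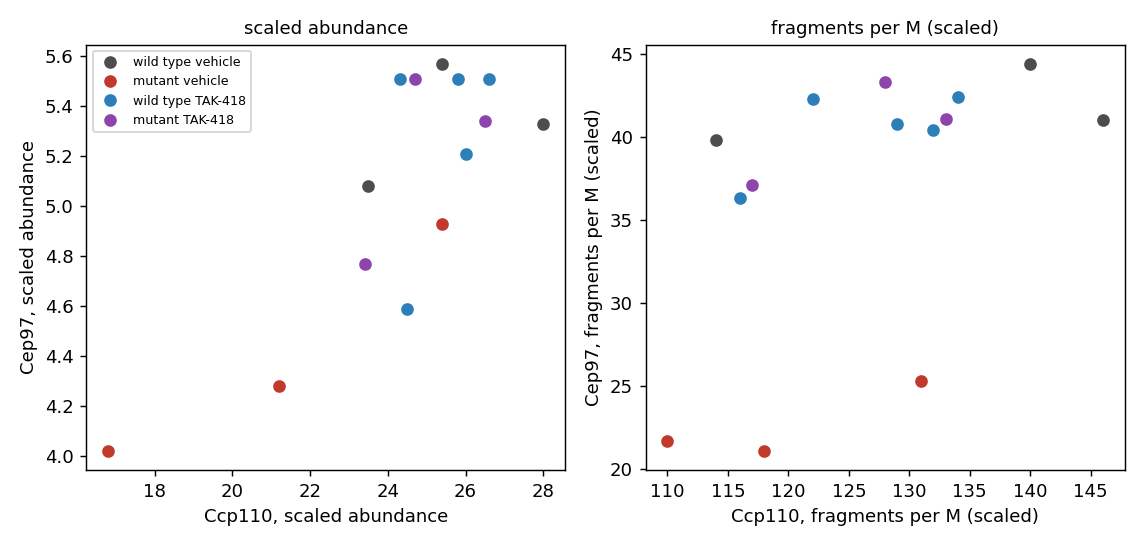
Cep97 against Ccp110 in each library, in scaled abundance (left) and in fragments per M (right), coloured by group. On the left the 2 mutant vehicle libraries with the lowest Ccp110, 16.8 and 21.2, also have the lowest Cep97, 4.02 and 4.28, and on the right the 3 mutant vehicle libraries lie apart from the others in Cep97 alone.

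Among 13272 other genes with a value in all 14 libraries, the 3 most like Cep97 were Ttbk2 (r of 0.92), Oprd1, the delta opioid receptor gene (0.89), and Jade3 (0.88). Ttbk2, whose kinase triggers removal of the CP110 cap, ranged only from 10.1 to 12.2. The 3 most like Ccp110 were Rab30, a small GTPase gene (0.91), Adamts3, a procollagen protease gene (0.90), and Bnip1 (0.90). By this measure Ccp110 was number 20 for Cep97, and Cep97 number 39 for Ccp110. The mutant vehicle libraries enter all of these values, which are descriptions.

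Ttbk2 averaged 11.8 ± 0.0857 (SD, n = 3) for wild types and 10.6 ± 0.757 (SD, n = 3) for mutants under vehicle, with 11.6 ± 0.601 (SD, n = 5) and 11.3 ± 0.542 (SD, n = 3) under TAK-418. Its genotype effect under vehicle was -0.15 (SE 0.063), with a limma adjusted p of 0.87.

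The CP110 cap list held 12 further genes, for proteins that bind, remove or degrade the cap or help the cilium to form. None passed limma's adjusted threshold in any of the 7 contrasts. Under vehicle, 7 were higher and 5 lower in mutants, with a median log2 difference of 0.01 (all genes 0.00), and Ttbk2 alone had an unadjusted p under 0.05. The 3 most abundant were Usp33, whose deubiquitinase acts on CP110, with a genotype effect under vehicle of 0.01 (SE 0.312), Cetn2, a centrin gene, with 0.01 (SE 0.235), and Neurl4, whose product keeps CP110 low, with 0.05 (SE 0.050). Kif24, whose kinesin acts with the cap on centriolar microtubules, had a mean of 0.449, under the pseudocount of 0.88. Cep76, for a CP110-binding protein, stood at 3.75 ± 0.128 (SD, n = 3) in wild type vehicle and 3.50 ± 0.242 (SD, n = 3) in mutant vehicle libraries.

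Over all 4 lists, 46 genes besides the 2 partners were tested. None passed the threshold in any contrast, and 4 had an unadjusted p under 0.05 for the genotype effect under vehicle (8.70%, against 5.45% of all genes). These were Cep164 (-0.36, SE 0.108, limma adjusted p of 0.69), for the distal appendage protein that recruits TTBK2, Ofd1 (-0.19), Ttbk2 (-0.15) and Fbf1 (0.14). The mean of Cep164 was 5.81 in wild type vehicle libraries, 4.34 in mutant vehicle libraries, 4.27 in treated wild types and 4.53 in treated mutants, so the wild type vehicle group was the highest of the 4. In limma's other contrasts, the share of the 46 with an unadjusted p under 0.05 was 0% for genotype under TAK-418 (all genes 4.95%). It was 0% for TAK-418 in mutants (4.4%) and 8.70% for TAK-418 in wild types (8.45%). Treated mutants against vehicle wild types gave 2.17% (5.39%), vehicle mutants against treated wild types 2.17% (9.26%) and the interaction 4.35% (4.44%).

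The distal appendage list had a median of -0.03 under vehicle. Its 3 most abundant genes were Ift20, for an intraflagellar transport protein (0.23, SE 0.269), Odf2 (0.01, SE 0.126) and Cep83 (-0.05, SE 0.087). In the centriole duplication list the median was -0.01, and Cep120 (0.01, SE 0.040), Cep63 (-0.03, SE 0.120) and Poc5 (-0.02, SE 0.143) led by level. In the pericentriolar list it was -0.04, led by Ssx2ip (-0.08, SE 0.055), Tubg1, for gamma-tubulin (-0.04, SE 0.071), and Crocc, for rootletin (0.05, SE 0.207). All of these values are smaller than 3 times their SE.

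Markers of cells with many centrioles or in division were low beside those of neurons. The 12 ependymal and multiciliated markers summed to 27.0 to 50.9 in mutant vehicle and 25.9 to 42.4 in the other libraries. The 10 dividing-cell markers summed to 14.3 to 20.9 in mutant vehicle and 12.0 to 17.9 in the others. In whole tissue, fewer cells of a type and less RNA per cell cannot be told apart, and the part of these cells in the levels of Cep97 and Ccp110 was not tested.

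The nearest genes on each side overlapped between the vehicle groups. Nxpe3, 4602 bases beyond its 3′ end on the same strand, read 11.4 to 12.8 in mutant vehicle and 10.8 to 12.3 in wild type vehicle libraries, with a log2 difference of 0.09 (SE 0.082, limma adjusted p of 1.0). Rpl24, 31419 bases before its 5′ end, had a difference of -0.02 (SE 0.073). Beside Ccp110, Gde1 had a difference of 0.03 (SE 0.044) and Vps35l one of 0.30 (SE 0.294), neither past the threshold in limma.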

How the data were processed

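Per the file headers, the authors assembled each library's transcripts with CLASS 2.1.7, and each transcript carries an abundance score. The deposited score has the scale of FPKM, worked out from the values: in every library, 95.4% to 99.7% of the low single-exon transcripts had an abundance times length that was a whole multiple of 1 unit, within 0.1 of it. The submitters' processing notes name TopHat2 2.1.0, FastQC and mm10 without a role. The authors' 4 comparison tables hold 1 value per group, read here as pooled FPKM, with log2 ratios, p-values and q-values in Cuffdiff's layout. Their headers name the groups only as q1 and q2, so the groups were taken from the tables' names. In all 4 tables the named order of the groups was the closest of all orders to the libraries. The program behind the tables is not given in the sources used here.

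Transcripts were assigned to GENCODE M21 genes (GRCm38) by shared introns, and single-exon transcripts by at least 50% exon overlap. Single-exon transcripts without a strand were counted where they lay on exons of 1 gene only, a choice made after seeing the files. Gene sums were divided by each library's median ratio to the geometric mean over 13273 genes. Limma 3.58.1 (R 4.3.3, trend) was fitted to log2(value + 0.88) of the 16537 genes with a value in at least 3 of the 14 libraries, with 4 group means, 7 contrasts and Benjamini-Hochberg adjustment to 0.05. On this scale the change of low genes is understated. For abundance times length the pseudocount was 0.595 fragments per M (1000000). Intervals use 10 residual degrees of freedom. On simulated data for the genotype effect under vehicle (16537 genes, 200 changed), 86% of genes changed by 1 and 96% of those changed by 2 on the log2 scale were recovered, with 9 false calls. The changed genes were drawn from those above a floor in all 14 libraries, and the noise was normal and independent. Recovery of lower genes and of smaller changes was therefore not measured. Correlations used 100000 permutations, and the planned p over all 14 libraries is not given because the pair was chosen with them in view. Replicate numbers follow the order of deposit within a group and only name the libraries.

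The members, lists and tests were chosen with earlier results of these data known. The text names both members, list genes past the threshold, the 3 most abundant of each list, the 3 most alike per member and the nearest neighbours. Besides these, Cep164, Ofd1, Fbf1, Kif24 and Cep76 were chosen after their values were seen. Promoters came from RefSeq (GRCm38.p6), which held both members. The groups' stated size of 3-4 mice in the series differs from the 5 wild type TAK-418 libraries. Other steps ran in Python 3.11.15 with scipy 1.17.1, pandas 2.3.3 and numpy 2.4.6.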

Additional observations from a re-analysis of the deposited data

Results flagged for a closer look

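Wild type TAK-418 replicate 1 lay far from the other 4 libraries of its group in depth and in the number of assembled transcripts. Its implied total was 167.6 M, against 40.8 to 56.1 M in the others, and the gap to the nearest was 0.879 of the group's range. It had 48428 assembled transcripts, against 33880 to 35896, with a gap of 0.861 of the range. The cutoff for a flag was a gap of 0.71 of the range, which chance alone passes in about 5% of such groups. Of 9 measures screened, these 2 passed it. No such gap was found in this group for the scaled abundance or the fragments per M of Cep97 and Ccp110, the length of the Cep97 model or the 2 Ccp110 form shares. Without this library, TAK-418 in wild types was -0.03 for Cep97 and -0.02 for Ccp110.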

How the results depend on the processing

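No paired analysis was possible because the labels give no replicate numbers; those used here were assigned in order of deposit and pair no libraries. For Cep97, 178 of 192 values under the alternatives moved by less than the SD within groups (0.10). This count includes many values that could not move. Leaving out a library outside a contrast, changing the filter on low values or fitting only the compared groups leaves a log2 difference unchanged. For the genotype effect under vehicle, TAK-418 in mutants, vehicle mutants against treated wild types and the interaction, 10 times the pseudocount gave -0.10, 0.08, -0.09 and 0.09. The highest transcript only gave -0.34, 0.32, -0.32 and 0.34, and abundance times transcript length gave -0.86, 0.82, -0.82 and 0.87. The authors' deposited table gave -0.03 for the genotype effect under vehicle and 0.00 for vehicle-treated mutants against treated wild types. The pseudocount and the length enter these values by construction, and for the others the cause was not tested.

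For Ccp110, none of the 192 alternatives passed limma's adjusted threshold (lowest adjusted p 0.161). Of these, 183 kept their direction, a count that again includes many values that could not move. The highest transcript only turned TAK-418 in mutants to -0.30 and the interaction to -0.28, and moved the genotype effect under vehicle to -0.04, vehicle-treated mutants against treated wild types to -0.02, genotype under TAK-418 to -0.32 and treated mutants against vehicle-treated wild types to -0.35. TAK-418 in wild types, at -0.01, turned to 0.01 with no scaling and 0.05 with scaling by the summed abundance. Leaving out 1 library at a time moved genotype under TAK-418 between -0.08 and 0.01, TAK-418 in wild types between -0.07 and 0.06, and treated mutants against vehicle wild types between -0.10 and 0.02. The genotype effect under vehicle ranged from -0.42 to -0.14 for Ccp110 and from -0.30 to -0.18 for Cep97, each weakest without mutant vehicle replicate 1. TAK-418 in mutants ranged from 0.10 to 0.39 for Ccp110 and from 0.15 to 0.27 for Cep97. Vehicle-treated mutants against treated wild types ranged from -0.42 to -0.13 for Ccp110 and from -0.29 to -0.17 for Cep97, and the interaction from 0.11 to 0.39 and from 0.17 to 0.29. The correlation of both genes ranged from 0.70 to 0.87.

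Added after seeing the data, leaving out both libraries with the most choroid plexus transcripts (mutant vehicle 1 and wild type vehicle 3) gave a genotype effect under vehicle of -0.15 for Cep97 and -0.14 for Ccp110, and a correlation of 0.71. Leaving out single-exon transcripts without a strand gave -0.32 for Cep97 and -0.28 for Ccp110. With 3 libraries in most groups, exact tests of 3 against 3 cannot go below 0.1.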
